A study of Mus musculus with 6 samples.

Results

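The 7 genes Hnf4a, Foxa1, Foxa2, Foxa3, Gata4, Gata6 and Sox17 encode transcription factors of visceral endoderm, the absorptive and secretory epithelium that faces outward in the mouse yolk sac. They were taken by symbol from a table of 25239 genes, and all 7 had a row and passed the filter on low counts. None of them differed between yolk sacs of wild-type embryos and of embryos labelled Cdx mutant past the threshold of the test over all genes. In every one of these genes, libraries 1 and 3 labelled mutant nevertheless lay on opposite sides of all wild-type libraries. Of all genes tested, 37.1% did so. Among the libraries labelled mutant, Hnf4a and the 3 FOXA genes were lowest in library 1 and highest in library 3. Gata4, Gata6 and Sox17 were highest in library 1 and lowest in library 3. The spread of Hnf4a and Gata4 among these libraries was below the median of all genes.

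RNA came from yolk sacs at embryonic day 9.5. The 3 wild-type (WT) libraries are from untreated CD1 embryos. The 3 libraries labelled DKO are from embryos of mixed background that are Cdx1-/- and Cdx2 fl/fl, carry Actin::CreERT, a Cre recombinase under an actin promoter that tamoxifen switches on, and were exposed to tamoxifen at embryonic day 5.5. Strain, genotype and tamoxifen differ together and cannot be told apart, and the actin promoter drives Cre in many cell types rather than in endoderm alone. The labels do not say whether a library is 1 yolk sac or a pool, and p-values therefore cover only the spread over these samples, which may be technical. In bulk tissue, fewer cells of a type and less RNA per cell cannot be told apart.

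All values given per library follow the order of libraries 1, 2 and 3 of a group. Depth ran from 20040601 to 26855337 counts in WT and was 24242663, 39014098 and 56732836 counts in libraries 1, 2 and 3 labelled DKO. Cdx2, a targeted gene, stood at 16.6, 18.9 and 20.4 CPM (counts scaled to a common library size after correction for composition) for WT and 23.0, 24.1 and 25.7 CPM for those labelled DKO (log2 difference 0.38, SE 0.12, edgeR adjusted p 0.449). Cdx1, the other, had between 0 and 8 counts in WT and 10 to 14 in the libraries labelled DKO. Neither gene was lower in the libraries labelled DKO, so every direction given for them rests on the labels. A count over the whole gene cannot show whether the floxed part alone was lost. Receptor genes of the absorptive endoderm were abundant in all 6 libraries, with Cubn, the receptor cubilin, at 4309 to 6726 CPM and Amn, its partner amnionless, at 395 to 667 CPM. Albumin (Alb), a mark of liver, stood at 0.122 to 1.74 CPM.

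Visceral endoderm takes up maternal nutrients, secretes plasma proteins such as alpha-fetoprotein and apolipoproteins before the liver does, and signals to the blood islands beneath it. In mouse, GATA6 acts early in this lineage and is needed for Hnf4a to be expressed there, and GATA4, its relative, is needed for the endoderm that folds the embryo. HNF4A, a nuclear receptor, maintains the genes of secreted carriers and lipoproteins, and the FOXA forkhead proteins open chromatin at genes of gut, liver and visceral endoderm. SOX17 is needed to form definitive endoderm and is also a factor of arterial endothelium.

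The sequences upstream of the transcription starts of Hnf4a, Foxa1 and Foxa3 are shown because Hnf4a was the most abundant of these genes and has separate starts whose reads the gene counts pool, and because Foxa1 and Foxa3 were the FOXA genes that varied most among the libraries labelled DKO. Each is the 250 bases before the start on the strand of the gene, from RefSeq, build GRCm38.p6, and the annotated gene of Foxa1 also extends upstream of the start shown. Capitals mark matches, on either strand, to TGTTTAC for the forkhead family, GTTAAT for HNF1, AGTCCA for HNF4, AGATAA or TGATAA for the GATA family and ACAATG for SOX factors.
Hnf4a, first start, chr2:163506607-163506856, plus strand: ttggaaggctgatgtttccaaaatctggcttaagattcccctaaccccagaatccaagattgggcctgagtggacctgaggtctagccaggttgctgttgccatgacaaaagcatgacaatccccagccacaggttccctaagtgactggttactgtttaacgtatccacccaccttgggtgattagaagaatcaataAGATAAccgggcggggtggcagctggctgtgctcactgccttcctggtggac
Hnf4a, second start, chr2:163546905-163547154, plus strand: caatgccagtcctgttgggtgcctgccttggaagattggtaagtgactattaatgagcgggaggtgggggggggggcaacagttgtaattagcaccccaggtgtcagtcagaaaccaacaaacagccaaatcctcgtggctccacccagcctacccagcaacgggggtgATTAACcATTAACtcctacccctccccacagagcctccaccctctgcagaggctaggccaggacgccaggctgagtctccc
Foxa1, chr12:57546112-57546361, minus strand: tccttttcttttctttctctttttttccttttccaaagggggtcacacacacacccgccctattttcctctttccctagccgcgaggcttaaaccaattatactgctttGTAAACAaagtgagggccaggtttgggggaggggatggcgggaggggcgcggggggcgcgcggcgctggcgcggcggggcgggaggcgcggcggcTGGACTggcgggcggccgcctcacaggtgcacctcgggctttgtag
Foxa3, chr7:19023540-19023789, minus strand: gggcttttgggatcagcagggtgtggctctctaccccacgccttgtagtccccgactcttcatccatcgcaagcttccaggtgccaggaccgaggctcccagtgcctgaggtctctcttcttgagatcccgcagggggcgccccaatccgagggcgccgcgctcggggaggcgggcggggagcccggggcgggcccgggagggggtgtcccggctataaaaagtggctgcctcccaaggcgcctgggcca

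The second Hnf4a start lies 40298 bases downstream of the first and holds the HNF1 letters 2 times, beginning 81 and 74 bases before the start and separated by a single base. The first start holds a GATA match 52 bases upstream and an HNF4 match that begins 5 bases upstream and runs over the start, so that it is not marked above. Foxa1 holds a forkhead match 141 bases upstream and an HNF4 match 46 bases upstream, while Foxa3 holds none of these letters. Of 32851 RefSeq promoters of the same kind, 250 bases before to 50 after the start, 3.65% hold the forkhead letters, 7.1% the HNF1, 14.1% the HNF4, 18.6% the GATA and 12.6% the SOX letters. Foxa2 has 3 listed starts, of which 2 hold matches, to HNF1 and GATA at 1 start and to HNF4 at another. A match is a description of the letters and not of binding. In all, 4 of the 7 genes matched the promoter table, and Gata4, Gata6 and Sox17 had no entry. In GRCm38, Gata4 lies on chromosome 14 from 63198914 to 63271712, Gata6 on chromosome 18 from 11052510 to 11085636 and Sox17 on chromosome 1 from 4490928 to 4497426. Foxa2 lies on chromosome 2 from 148042877 to 148046969.

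Hnf4a was by far the most abundant of these factors per length of transcript. Its level reached 448, 420 and 425 CPM among WT libraries, while those labelled DKO gave 363, 488 and 506 CPM. The WT libraries lay close together, and library 1 labelled DKO lay below all of them while libraries 2 and 3 lay above. The group difference was 0.07 on the log2 scale (SE 0.14, adjusted p 0.868 by edgeR's quasi-likelihood test), with a 95% interval of -0.27 to 0.41. It was 0.20 without library 1 labelled DKO, 0.005 without library 2 and -0.021 without library 3. Divided by the joined length of all annotated exons, the mean WT level was 89.2 CPM per kb for Hnf4a and 24.9 CPM per kb for Gata4. It was 15.4 CPM per kb for Foxa2, 8.44 for Foxa3, 5.23 for Gata6, 2.31 for Sox17 and 1.81 for Foxa1. In WT the levels per kb of Sox17, from 1.69 to 2.695, and of Foxa1, from 1.56 to 1.94, overlapped, and no other neighbours in that order did. Among libraries labelled DKO the ranges per kb of Foxa2 overlapped those of Gata4 and of Foxa3, and the ranges of Gata6, Sox17 and Foxa1 overlapped each other.

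**Figure D1:**
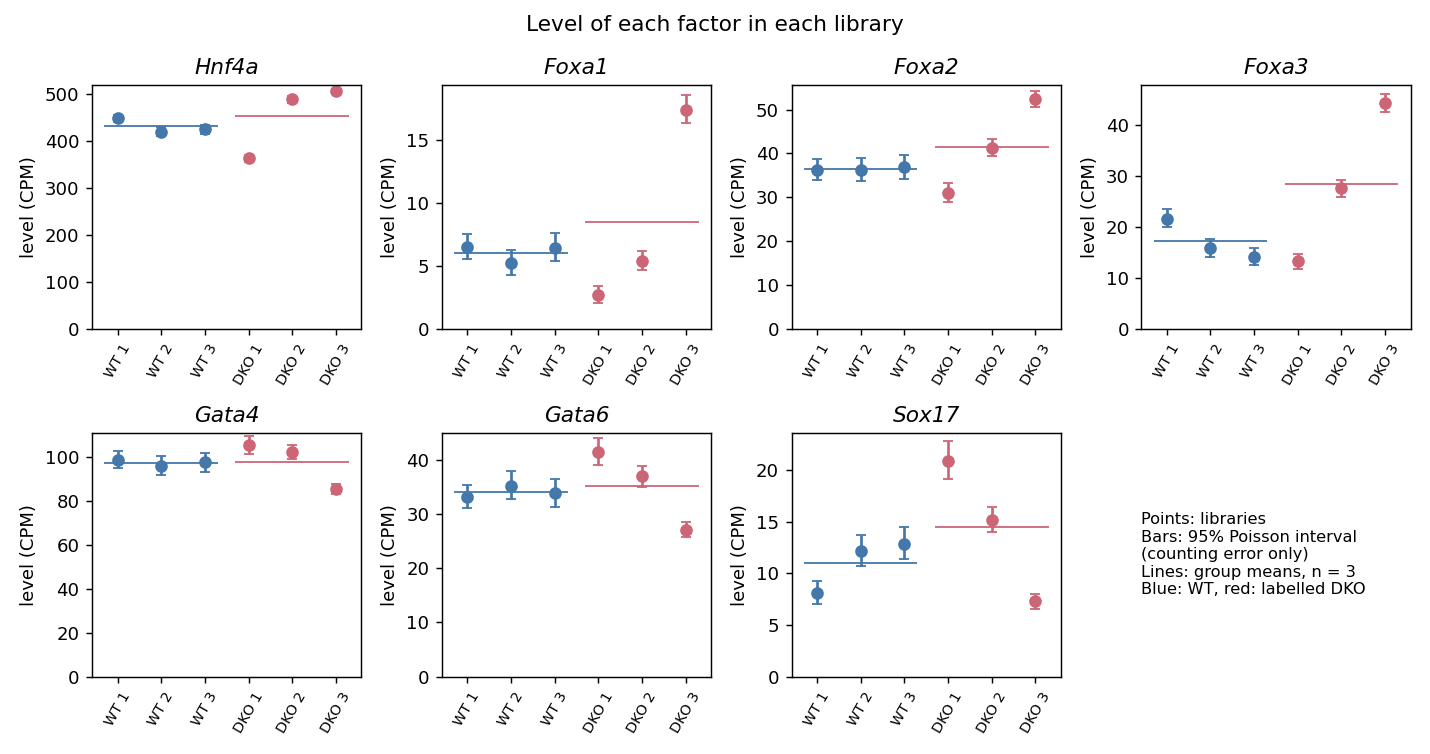
Level in CPM (vertical axes, from 0) of the 7 genes in each library (horizontal axes), with WT in blue and libraries labelled DKO in red, bars for 95% Poisson intervals of counting error and lines for the mean of 3 libraries. Hnf4a, Foxa1, Foxa2 and Foxa3 are highest in DKO library 3 and lowest in DKO library 1, and Gata4, Gata6 and Sox17 show the opposite.

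Foxa3 had the largest group difference of the 7 genes, but the libraries labelled DKO lay on both sides of the WT range. Foxa3 measured 21.6, 15.8 and 14.1 CPM over the WT libraries, against 13.2, 27.6 and 44.4 CPM over those labelled DKO. Libraries 2 and 3 lay above every WT library and library 1 below every one. Its log2 fold change was 0.73 (SE 0.42, 95% interval -0.29 to 1.74, adjusted p 0.637 by edgeR). Without library 1 labelled DKO it was 1.06 (adjusted p 0.059), and without library 3 it was 0.25.

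Foxa1 was the scarcest of the FOXA genes, and the 3 libraries labelled DKO spread furthest apart in it. From 174, 107 and 129 counts it gave 6.46, 5.20 and 6.41 CPM for WT. From 66, 210 and 962 counts it gave 2.68, 5.40 and 17.4 CPM for those labelled DKO. The highest of these was 6.51 times the lowest, against 1.24 times in WT, and their Poisson intervals of 2.07 to 3.41 and 16.3 to 18.5 CPM did not overlap, so that counting error does not cover the gap. The log2 fold change was 0.51 (SE 0.64, adjusted p 0.797 by edgeR), and it turned to -0.57 without library 3. It stood at 0.92 without library 1 and -0.06 in limma voom with library weights.

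Foxa2, the FOXA gene needed for node and notochord in mouse, was the steadiest of the 7 genes in WT, at 36.3, 36.2 and 36.8 CPM. Those labelled DKO gave 31.0, 41.3 and 52.4 CPM. Again library 1 lay below and libraries 2 and 3 above all WT libraries. The log2 fold change was 0.19 (SE 0.19, 95% interval -0.26 to 0.65, adjusted p 0.748 by edgeR). It was 0.36 without library 1 (adjusted p 0.0997) and -0.014 without library 3.

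Foxa2 made up most of the FOXA transcripts per kb of exon in WT, with 54.9%, 62.1% and 63.7% of their sum in WT libraries 1, 2 and 3. It had 64.2%, 53.5% and 45.0% in libraries 1, 2 and 3 labelled DKO. Foxa3 had 38.1%, 31.6% and 28.4% in WT and 31.9%, 41.5% and 44.3% in the libraries labelled DKO, so that in library 3 Foxa2 and Foxa3 were nearly level. Foxa1 had 6.35% to 7.89% in WT and 3.95%, 4.98% and 10.7% in the libraries labelled DKO. The ratio of Foxa2 to Foxa3 in CPM was 2.19 ± 0.474 for WT against 1.67 ± 0.601 for those labelled DKO (SD, n = 3 each), and the groups overlapped.

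**Figure D2:**
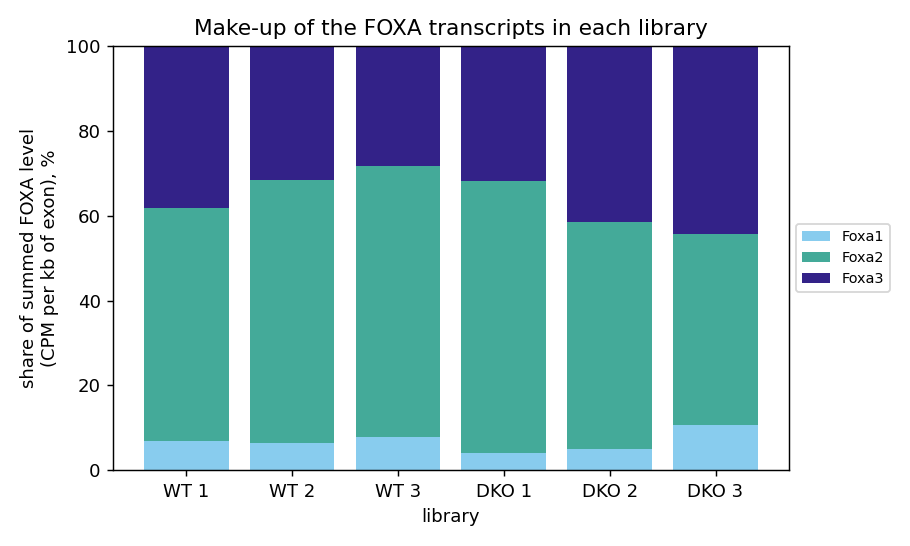
Share (vertical axis, percent) of Foxa1, Foxa2 and Foxa3 in their summed level per kb of exon in each library (horizontal axis). Foxa2 has the largest share in every library, from 45.0% in DKO library 3 to 64.2% in DKO library 1.

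The GATA genes had the same order among the libraries labelled DKO, but the opposite order among the WT libraries, where both varied little. Gata4 reached 98.5, 95.8 and 97.3 CPM among WT libraries, while those labelled DKO gave 105, 102 and 85.2 CPM. Here libraries 1 and 2 lay above every WT library and library 3 below. The log2 fold change was 0.005 (SE 0.105, adjusted p 0.989 by edgeR), and the 95% interval of -0.25 to 0.26 was the narrowest of the 7. Its sign was not stable and turned in 7 of 13 alternative settings.

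Gata6 measured 33.1, 35.2 and 33.8 CPM over the WT libraries, against 41.4, 36.9 and 27.0 CPM over those labelled DKO. As with Gata4, libraries 1 and 2 lay above every WT library and library 3 below. The log2 fold change was 0.04 (SE 0.17, 95% interval -0.36 to 0.44, adjusted p 0.933 by edgeR), 0.20 without library 3 and -0.10 without library 1. The ratio of Gata4 to Gata6 kept within 2.54 and 3.16 over all 6 libraries, with a mean of 2.86 ± 0.125 for WT against 2.82 ± 0.309 for those labelled DKO (SD, n = 3 each). Antisense genes lie against some of these factors, and without a stated strand setting their reads cannot be told from those of the factor. Gata6os, at 0.397 to 0.798 CPM, and Hnf4aos, at 1 to 48 counts, were scarce beside Gata6 and Hnf4a.

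Sox17 reached 8.06, 12.1 and 12.9 CPM among WT libraries, while those labelled DKO gave 20.9, 15.2 and 7.28 CPM. Libraries 1 and 2 lay above every WT library and library 3 below every one. The log2 fold change was 0.39 (SE 0.39, 95% interval -0.56 to 1.34, adjusted p 0.754 by edgeR). It was 0.71 without library 3 (adjusted p 0.449), 0.02 without library 1 and 0.20 without WT library 1.

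**Figure D3:**
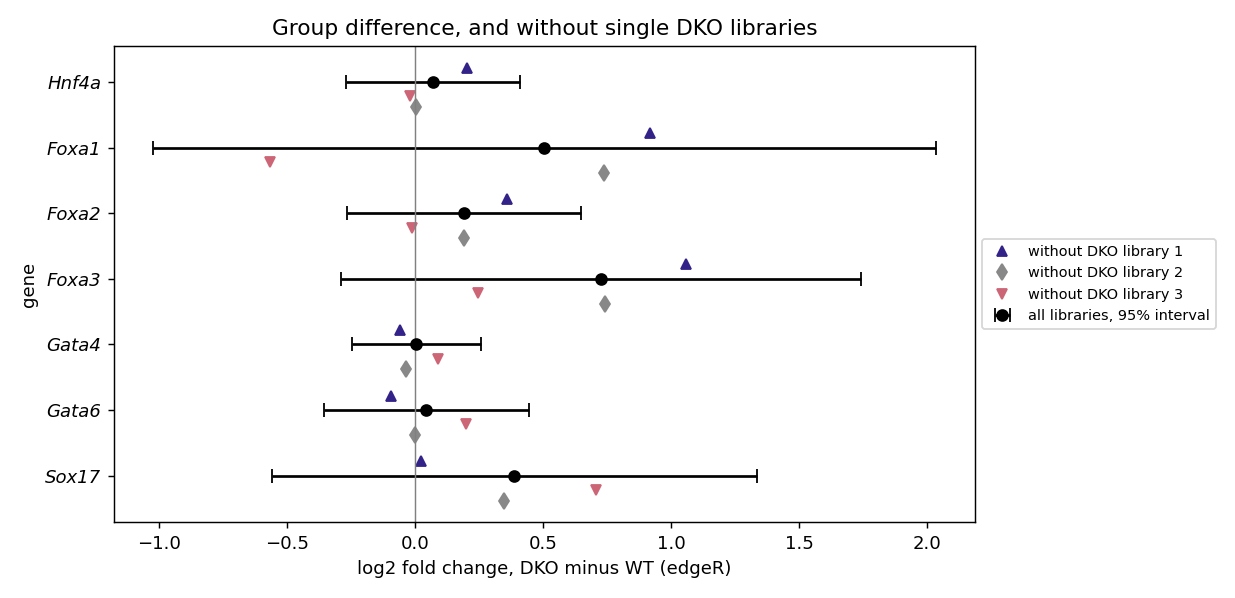
Log2 fold change of each gene (vertical axis), libraries labelled DKO minus WT, by edgeR (horizontal axis), with its 95% interval (black) and the value without each DKO library (coloured marks). All 7 intervals span 0, and the marks without library 1 and without library 3 lie on opposite sides of the black point for every gene.

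By edgeR, 0 of the 7 genes were called, where 5 of 14002 genes (0.0357%) were. At an unadjusted p under 0.05 the count was also 0 of 7, where 9.09% of all genes were under it, and DESeq2 likewise called 0 of 7 where it called 1.92% of all genes. Limma voom with library weights called 0 of 7 where it called 18.7% of all genes. The groups overlapped in all 7 genes, whereas they did not overlap in 15.6% of all genes tested. All 7 log2 fold changes were positive with a median of 0.19, beside 7270 of 14002 positive and a median of 0.01 over all genes. Without library 1 labelled DKO, edgeR called 4.42% of all genes and 0 of the 7, although 3 of the 7 then had an unadjusted p under 0.05, where 33.3% of all genes did.

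Libraries 1 and 3 labelled DKO lay on opposite sides of all WT libraries in each of the 7 genes. Hnf4a, Foxa1, Foxa2 and Foxa3 had library 1 below and library 3 above, and Gata4, Gata6 and Sox17 the reverse. Over all genes tested, 18.6% had the first order and 18.5% the second, 37.1% in all. This pattern was noticed in these values and is given as a description with no test. Relative to the WT mean on the log2 scale, Foxa1 stood at -1.14 and 1.53 in libraries 1 and 3, Foxa3 at -0.35 and 1.39, Foxa2 at -0.23 and 0.52 and Hnf4a at -0.25 and 0.23. For Sox17 the values were 0.95 and -0.57, for Gata6 0.28 and -0.33 and for Gata4 0.12 and -0.19. Library 2 was on the side of library 3 for Hnf4a, Foxa2 and Foxa3 and on the side of library 1 for Gata4, Gata6, Sox17 and, within the WT range, Foxa1. Depth was also lowest in library 1 and highest in library 3 of that group, and its part in the pattern was not tested.

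**Figure D4:**
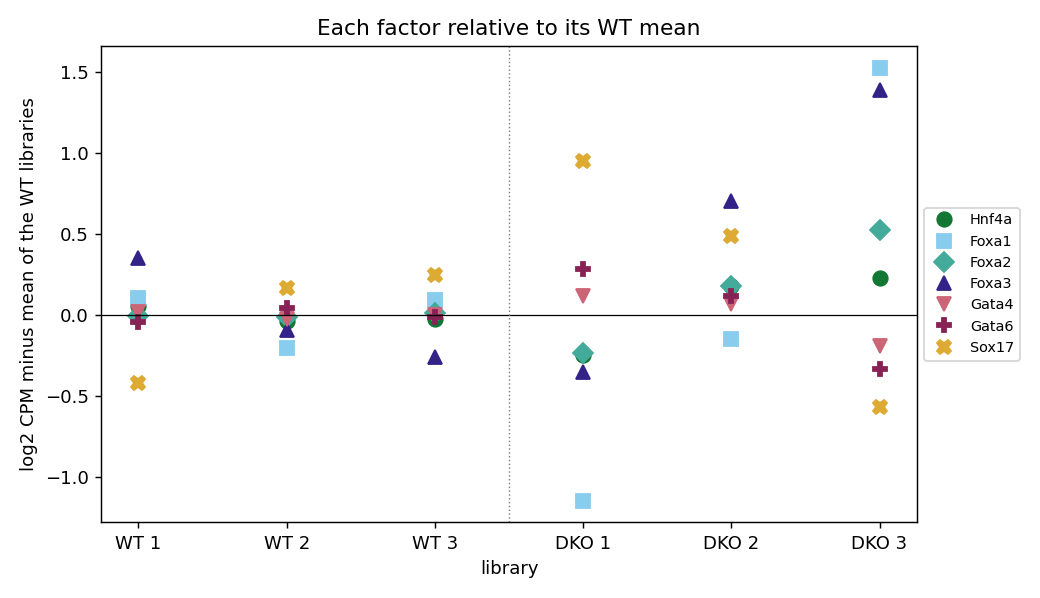
Log2 CPM of each gene minus its mean over the WT libraries (vertical axis) in the 6 libraries (horizontal axis), where each mark is a gene. The libraries labelled DKO spread from -1.14 to 1.53, with Foxa1 at both ends, while the WT libraries stay between -0.42 and 0.35.

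The spread among the libraries labelled DKO differed between the genes. The SD of log2 CPM there was 1.35 for Foxa1, 0.88 for Foxa3 and 0.78 for Sox17, larger than in 96.5%, 90.4% and 87.9% of all genes. It was 0.38 for Foxa2, 0.32 for Gata6, 0.26 for Hnf4a and 0.17 for Gata4, beside a median of 0.27 over all genes. In WT, Foxa2 had an SD of 0.014 and Gata4 of 0.020, and 1.19% and 2.55% of all genes had a smaller SD, whereas Sox17 and Foxa3 had 0.37 and 0.32 against a median of 0.12. The genes that varied most among the libraries labelled DKO were thus not all steady in WT.

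Profiles over the 6 libraries were compared by the root mean square difference of log2 CPM after each gene was centred on its own mean, a description over 6 points that share library and depth. Among the 7 genes, Gata4 and Gata6 lay closest (0.098), followed by Hnf4a and Foxa2 (0.113), and Foxa1 and Sox17 lay furthest apart (1.26). The same measure of a gene about its own mean was 0.096 for Gata4, 0.186 for Gata6, 0.157 for Hnf4a and 0.233 for Foxa2. It was 0.787 for Foxa1 and 0.516 for Sox17, so the distances between pairs also reflect how much each gene varied. Of 12396 genes compared, the nearest to Hnf4a were Mlec (0.023), a lectin of the endoplasmic reticulum, and Smpd1 (0.027), the lysosomal acid sphingomyelinase. Nearest to Foxa2 were Tmem165 (0.019) and Letmd1 (0.029), and nearest to Foxa3 were Cln6 (0.0502) and Trp53inp1 (0.0503). Bag1 (0.026) and Prr12 (0.028) were nearest to Gata4, and Chp1 (0.026) and Ift80 (0.034) to Gata6. Foxa1 had Tmem63a (0.140) and B2m (0.158), the light chain of MHC class I, nearest, and Sox17 had Tmem44 (0.051) and Pm20d2 (0.103). Genes that vary little find near neighbours easily, so these distances are not to be ranked between genes.

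Other factors of the hepatic type, which work with HNF4A in liver and gut, also gave no call by edgeR or DESeq2. Of 20 listed, 17 were tested and 0 were called by edgeR, 12 with a positive and 5 with a negative fold change and a median log2 fold change of 0.27, which was 0.54 without library 1 labelled DKO and 0.10 without library 3. At an unadjusted p under 0.05 there were 2 of the 17, both higher, where 9.09% of all genes were under it. Creb3l3, a membrane-bound factor of liver and gut, had a log2 fold change of -0.007 (SE 0.183) and Rxra, a partner of many nuclear receptors, 0.16 (SE 0.27). Limma voom with library weights called 4 of the 17 (23.5%, beside 18.7% of all genes), all higher, among them Mlxipl (adjusted p 0.0208) and Cebpb (adjusted p 0.00826). Without library 1 labelled DKO, edgeR called 1 of the 17 (5.88%, beside 4.42% of all genes), which was Cebpb (adjusted p 0.0313). Mlxipl, a glucose-responsive factor, ranged over 6.07 to 7.75 CPM for WT and 8.23 to 11.4 CPM for those labelled DKO (log2 fold change 0.51, SE 0.19, adjusted p 0.511 by edgeR). The groups did not overlap in it, as in 15.6% of all genes tested. Cebpb, which encodes the factor C/EBP beta, stood on the log2 scale at 0.62 (SE 0.24, adjusted p 0.526).

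Genes of early and anterior endoderm were scarce, and 3 of 8 were tested by edgeR, with 0 called. DESeq2 tested 6 and called 1, Lefty1, higher (16.7%, beside 1.92% of all genes called). Hhex stood at 0.29 (SE 0.26), Lhx1 at -0.19 (SE 0.39) and Eomes at -0.002 (SE 0.680) on the log2 scale. Otx2, a mark of anterior visceral endoderm, had between 0 and 2 counts. Lefty1 had 2, 0 and 0 counts in WT and 4, 37 and 332 in the libraries labelled DKO, with 6.01 CPM in library 3. Without library 1 labelled DKO, edgeR tested 5 of the list and called Lefty1 higher (20%, beside 4.42% of all genes called). Of 8 relatives and cofactors of the GATA and SOX17 proteins, 0 were called by edgeR or DESeq2 and 5 were negative, with a median of -0.02, which was -0.49 without library 1 labelled DKO and 0.31 without library 3. The GATA cofactor Zfpm1 and the erythroid factor Gata1 stood at -0.42 (SE 0.69) and -0.42 (SE 0.79) on the log2 scale, and the 3 values of Gata1 labelled DKO were 49.3, 24.0 and 3.47 CPM against 27.9 to 38.8 CPM for WT. Gata2, a factor of blood progenitors, stood at 45.1 CPM in library 1 labelled DKO and at 7.64 to 14.3 CPM in the other 5 libraries. Zfpm2, called lower by limma voom (adjusted p 0.0426), stood at -0.42 (SE 0.24) by edgeR and Sox18, the SOX factor nearest to SOX17 with Sox7, at 0.15 (SE 0.24).

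Products of visceral endoderm that depend on HNF4A in mouse followed the order of Hnf4a among the libraries labelled DKO in 5 of 7 genes, with library 1 below and library 3 above all WT libraries, an order that 18.6% of all genes tested had. The same order stood in 8 of 17 hepatic-type factors, 6 of 14 other secreted products and 5 of 12 epithelium markers. None of the 7 was called by edgeR or DESeq2, and the median log2 fold change was 0.07, with 0.32 when library 1 labelled DKO was left out and -0.13 when library 3 was. Afp, the alpha-fetoprotein gene, reached 9861, 6787 and 7866 CPM among WT libraries, while those labelled DKO gave 2223, 11547 and 31235 CPM. Between libraries 1 and 3 Afp thus spread far more than Hnf4a. Apoa1 was called higher by limma voom (adjusted p 0.0222) and by edgeR without library 1 labelled DKO (adjusted p 0.0468). It was 1 of 7 (14.3%) in both, where these settings called 18.7% and 4.42% of all genes. Apoa1 stood at 0.43 (SE 0.24) and Apob at -0.35 (SE 0.18) on the log2 scale, and Apob was highest in library 2 of that group. The summed level of the 7 products averaged 26506 ± 2543 CPM for WT and 33591 ± 20029 CPM for those labelled DKO (SD over 3 libraries each, exact permutation p = 0.7, adjusted over 11 lists 0.856, smallest p possible 0.1).

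The other secreted products gave 0 calls by edgeR among 14 tested, 9 positive and 5 negative, with a median log2 fold change of 0.50, which was 1.14 without library 1 labelled DKO and -0.11 without library 3. Serpina1a, an alpha-1-antitrypsin gene with near-identical paralogs whose reads may be shared, ranged over 4.23 to 7.61 CPM in WT, against 12.5, 59.1 and 197 CPM among those labelled DKO (log2 fold change 3.98, SE 0.97, adjusted p 0.333 by edgeR and 0.00812 by DESeq2). DESeq2 called 1 of 16 tested, Serpina1a (6.25%, beside 1.92% of all genes). Without library 1 labelled DKO, edgeR called 3 of 15, all higher (20%, beside 4.42% of all genes). Limma voom called 5 of the 14 (35.7%, beside 18.7% of all genes), 3 higher and 2 lower. Among them were Serpina1a (adjusted p 0.0128), Spink1 (adjusted p 0.0264) and Ctsh (adjusted p 0.0256). Spink1 stood at -0.43 (SE 0.12), Ctsh, a lysosomal protease gene placed in that list, at -0.54 (SE 0.19), Apoa2 at 0.68 (SE 0.66) and Mttp, which loads lipid onto APOB, at -0.05 (SE 0.09).

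Markers of the epithelium itself, of which Cubn alone gives a large part of the sum, had a summed level of 12190, 13375 and 11000 CPM over the WT libraries, against 10039, 11379 and 10854 CPM over those labelled DKO (exact permutation p = 0.2, adjusted 0.44). Gene by gene, the median difference from the WT mean on the log2 scale was -0.21 in library 1 and 0.53 in library 3 labelled DKO. Amn was 395, 603 and 667 CPM in the libraries labelled DKO, and Epcam, an adhesion gene of epithelia, 83.5, 122 and 180 CPM. Not all markers rose in that order, as Dab2 was 1664, 1434 and 952 CPM and Cubn 4431, 5301 and 4309 CPM there. Library 1 lay below and library 3 above all WT libraries in 5 of 12 markers, and 0 had the reverse. Over all genes these orders stood in 18.6% and 18.5%. Of 12 markers 0 were called by edgeR or DESeq2. Limma voom called 5 (41.7%, beside 18.7% of all genes), 3 higher and 2 lower, among them Krt18 (adjusted p 0.0158) and Dab2 (adjusted p 0.0154). Krt18, a keratin, stood at 0.52 (SE 0.21), and the endocytic genes Dab2, Lrp2 and Cubn at -0.52 (SE 0.21), -0.27 (SE 0.13) and -0.30 (SE 0.17). The amount of this epithelium in each library was not otherwise measured, and its part in the levels of the factors was not tested.

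Several of the 7 genes are also expressed outside visceral endoderm. Parietal endoderm, which uses GATA6 and GATA4 too, had a summed marker level of 1099, 1056 and 986 CPM over WT. Those labelled DKO gave 856, 1177 and 1462 CPM (exact permutation p = 0.7, adjusted 0.856), the reverse of the order of Gata4 and Gata6. Sparc alone gave a large part of that sum, at 576, 899 and 1186 CPM in the libraries labelled DKO. Gene by gene, their median difference from the WT mean on the log2 scale was 0.18, -0.03 and -0.03. Of 8 markers tested, 2 had library 1 below and library 3 above all WT libraries, and 1 had the reverse. Over all genes these orders stood in 18.6% and 18.5%. Lama1, a laminin chain, stood at -0.58 (SE 0.12, adjusted p 0.29 by edgeR and 0.00856 by DESeq2), Sparc at 0.30 (SE 0.25) and Pth1r at 0.27 (SE 0.15). Of the 8 markers edgeR called 0 and DESeq2 called 1, Lama1 (12.5%, beside 1.92% of all genes). Limma voom called 2 (25%, beside 18.7% of all genes), Lama1 lower (adjusted p 0.00594) and Pth1r higher (adjusted p 0.0208). Of the gut, notochord and floor plate markers that share Foxa1 and Foxa2, Noto and Nkx2-1 had at most 1 count, T at most 2 and Shh 1 to 12 counts. The sum of that list was 11.4 to 12.3 CPM across WT, with 21.8, 21.8 and 91.4 CPM for those labelled DKO. Most of the excess came from Cldn4, a tight junction gene of many epithelia, at 81.7 CPM in library 3. Its log2 fold change was 2.92 (SE 0.82, adjusted p 0.388 by edgeR and 0.00267 by DESeq2). DESeq2 called 1 of 5 markers tested in that list, Cldn4 (20%, beside 1.92% of all genes). Pdx1 stood at -0.13 (SE 0.55) and Foxj1 at 0.77 (SE 0.47).

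Heart muscle markers, which would bring Gata4 and Gata6, were scarce, with Myl2 at 0 to 2 counts and Nkx2-5 at 1 to 39. Their sum was 2.86 to 7.20 CPM across WT, with 11.5, 2.496 and 1.99 CPM for those labelled DKO. Among the latter that is the order of the GATA genes, but it rests on few counts, with Myh6 at 93, 6 and 3. Of 4 markers tested, 3 had library 1 above and library 3 below all WT libraries, as 18.5% of all genes did. Nkx2-5 was instead highest in library 3 labelled DKO. The part of heart muscle in the levels of the GATA genes was not tested. Tnnt2 stood at -0.12 (SE 0.68), Myh6 at 0.27 (SE 1.42), Myl7 at -0.28 (SE 1.04) and Nkx2-5 at 1.08 (SE 0.77). Of 11 tested extraembryonic mesoderm and mesothelium genes, a tissue that also expresses GATA factors, 0 were called by edgeR or DESeq2. Limma voom called 2 of the 11 (18.2%, beside 18.7% of all genes), Wt1 (adjusted p 0.0178) and Hand2 (adjusted p 0.0161). Without library 1 labelled DKO, edgeR called 1 (9.09%, beside 4.42% of all genes), which was Col3a1 (adjusted p 0.0447). The sum of this list was 2283 to 4248 CPM across WT, with 1645, 5636 and 6313 CPM for those labelled DKO (exact permutation p = 0.4, adjusted 0.629). It was led by Col1a1 at 0.63 (SE 0.63), Col3a1 at 0.67 (SE 0.62) and Postn at 0.22 (SE 0.34). Gene by gene the list was split. Library 1 lay below and library 3 above all WT libraries in 4 genes, Col1a1, Col3a1 and Postn among them. Another 4 had the reverse, the order of Gata4 and Gata6. Over all genes these orders stood in 18.6% and 18.5%. Hand2 stood at 0.29 (SE 0.12) and Wt1 at -1.17 (SE 0.34).

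Endothelium, where Sox17 is expressed as well, had a summed marker level of 426, 520 and 467 CPM over WT. Those labelled DKO gave 553, 533 and 336 CPM, the order of Sox17 among them. Gene by gene, 2 of 8 had library 1 above and library 3 below all WT libraries, as 18.5% of all genes did. The median difference from the WT mean on the log2 scale was 0.08, 0.30 and -0.32 in the libraries labelled DKO. Pecam1 and Esam were lowest in library 1 and highest in library 3 of that group. Cdh5 stood at 0.12 (SE 0.20), Kdr at 0.03 (SE 0.34), Tek at -0.38 (SE 0.39), Pecam1 at 0.52 (SE 0.16) and Esam at 0.30 (SE 0.16). Limma voom called 2 of the 8 (25%, beside 18.7% of all genes), Pecam1 (adjusted p 0.0168) and Esam (adjusted p 0.0227). Arterial markers did not follow Sox17. Their sum reached 72.1, 104 and 95.7 CPM among WT libraries, while those labelled DKO gave 30.9, 53.6 and 38.3 CPM, where Sox17 stood at 20.9, 15.2 and 7.28 CPM (exact permutation p = 0.1, the smallest possible, adjusted 0.44). The arterial connexin gene Gja5 differed by -3.90 on the log2 scale (SE 0.76, adjusted p 0.247 by edgeR and 2.87e-06 by DESeq2). Gja4 differed by -2.82 (SE 0.41, adjusted p 0.135 by edgeR and 2.38e-08 by DESeq2). Efnb2 stood at -1.09 (SE 0.30, adjusted p 0.385 by edgeR and 0.0394 by DESeq2) and Dll4 at 0.16 (SE 0.32). Of 7 arterial markers tested, edgeR called 0 and DESeq2 called 3, all lower (42.9%, beside 1.92% of all genes). Limma voom called 4, all lower (57.1%, beside 18.7% of all genes). Without library 1 labelled DKO, edgeR called 3, all lower (42.9%, beside 4.42% of all genes).

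Blood and trophoblast are not sources of most of these factors, but their markers differed in level between the libraries. Primitive erythroid markers summed to 8735 to 13595 CPM across WT, with 7952, 10299 and 2773 CPM for those labelled DKO (exact permutation p = 0.2, adjusted 0.44), with all 8 tested fold changes negative and 0 called by edgeR, DESeq2 or limma voom. Hbb-bh1 stood at -0.76 (SE 0.59), Hba-x at -0.64 (SE 0.51), Hbb-y at -0.69 (SE 0.56), Hemgn at -0.96 (SE 0.43) and Slc4a1 at -0.92 (SE 0.49). Trophoblast and decidua markers summed to 17.1 to 47.4 CPM across WT, with 77.5, 46.6 and 414 CPM for those labelled DKO (exact permutation p = 0.2, adjusted 0.44). DESeq2 called 2 of 7 higher (28.6%, beside 1.92% of all genes called), Rhox6 (adjusted p 0.00708) and Rhox9 (adjusted p 0.0228). Rhox6 stood at 1.38 (SE 0.33) and Rhox9 at 1.88 (SE 0.55), while Prl2c2 at 235.5 CPM and Prl3d1 at 55.7 CPM were high in library 3 and Tpbpa had at most 3 counts. Library 3 labelled DKO thus held the highest FOXA levels, the lowest erythroid sum and the highest trophoblast sum. Of the erythroid markers, only Hbb-y was lowest elsewhere, at 674 CPM in library 1 labelled DKO beside 1187 CPM in library 3. The part of blood or trophoblast in the FOXA levels was not tested.

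**Figure D5:**
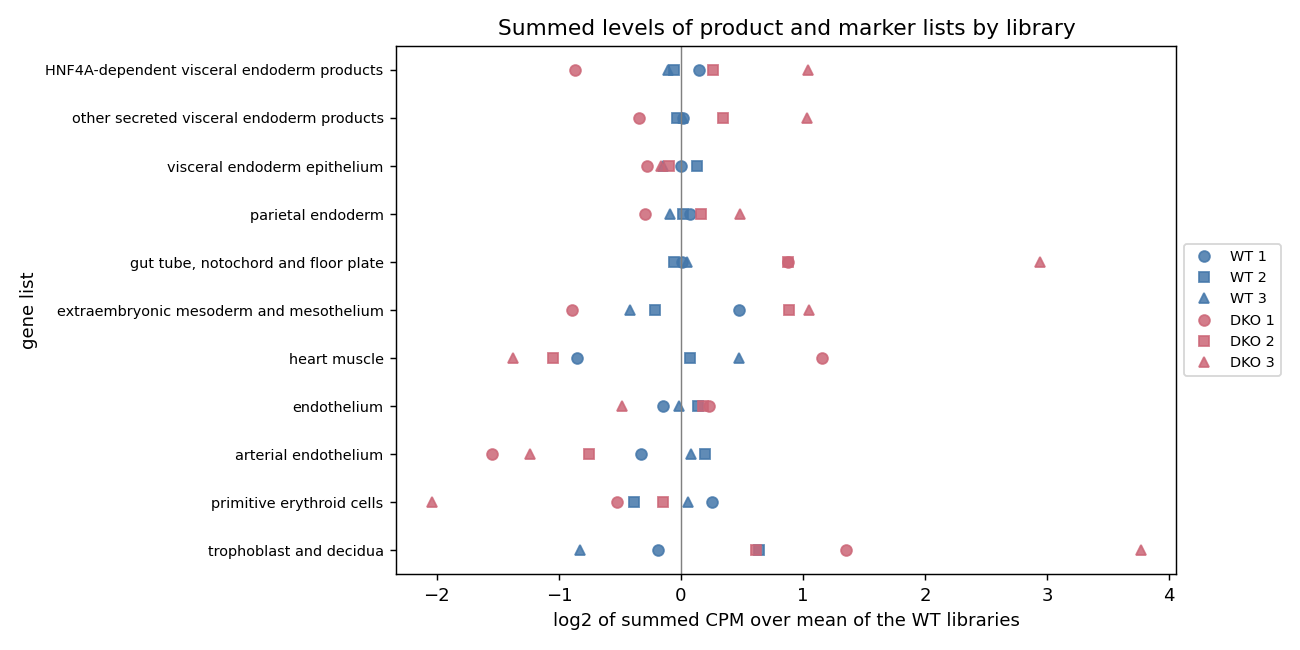
Log2 of the summed CPM of each list (vertical axis) over the mean of the WT libraries (horizontal axis), with WT in blue, libraries labelled DKO in red and the shape giving the library number. The sums of the HNF4A-dependent and other secreted products lie below WT in DKO library 1 and above WT in DKO library 3, while erythroid markers are lowest and trophoblast markers highest in DKO library 3.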

How the data were processed

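The data are raw counts of reads per gene, and they were analysed as the authors deposited them. The submitters' processing notes name the build mm10 and the tools SAMtools and DESeq2, without roles or versions. Per the file headers, counts were made from BAM files called subsets, a step not explained. Which aligner, counter, annotation and strand setting served is not given in the sources used here. Counts cover whole genes, so promoters, isoforms and deleted exons are not separated.

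Groups were compared with edgeR 4.0.16 (R 4.3.3) by quasi-likelihood F test with TMM scaling, the filterByExpr filter, which kept 14002 genes, and Benjamini-Hochberg adjustment over these with a threshold of 0.05. DESeq2 1.42.0 and limma 3.58.1 were alternatives, and 13 alternative settings were run. CPM use the TMM-scaled library size, and log2 CPM a prior count of 2. A count of 3 equalled 0.0543 to 0.149 CPM. Summed lists were compared by exact two-sided permutation. Intervals of levels are exact Poisson at 95% and cover counting error only. Exon lengths came from GENCODE M21, coordinates and promoters from RefSeq GRCm38.p6.

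Members and lists were chosen with earlier results of these data known. The text names the 7 members, the targeted genes, antisense neighbours, the 3 most abundant and 2 lowest-p genes of each list without a call, and the 2 genes nearest each member in profile. A listed gene that this rule names is not reported here. Cubn, Amn, Epcam, Alb, Otx2, Lefty1, Noto, Nkx2-1, T, Shh, Myl2 and Tpbpa were added as checks of tissue, after their values were seen.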

Additional observations from a re-analysis of the deposited data

How the results depend on the processing

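None of the 7 factors was called under any of the 13 alternatives, and the count stayed 0, where the alternatives called from 0% of all genes (without WT library 2) to 18.7% (limma voom with library weights). Lowest and highest log2 fold changes with a library left out were -0.021 and 0.20 for Hnf4a, -0.57 and 0.92 for Foxa1, -0.014 and 0.36 for Foxa2, 0.25 and 1.06 for Foxa3, -0.057 and 0.090 for Gata4, -0.096 and 0.20 for Gata6 and 0.02 and 0.71 for Sox17. Gata4 also turned to -0.0036 with library totals only, -0.0029 in DESeq2 and -0.00064 with the replicate block, and Foxa1 to -0.059 in limma voom. The cause was not tested. Adjusted p over the alternatives ran from 0.0578 to 0.968 for Foxa3 and from 0.0997 to 0.997 for Foxa2.

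Among the genes of the partner, product and marker lists, edgeR called 0 of 117, DESeq2 9 of 124 (7.26%, beside 1.92% of all genes) and limma voom with library weights 27 of 117 (23.1%, beside 18.7%). With a library left out the count was 0 to 11, 11 being of 120 without library 1 labelled DKO (9.17%, beside 4.42%). Of the targeted genes 1, Cdx2, was called by limma voom. With a library left out, the log2 ratio of summed levels ran from -0.20 to 0.70 for HNF4A-dependent products, from -0.043 to 0.33 for parietal endoderm, from -1.20 to 0.44 for heart muscle and from -0.12 to 0.21 for endothelium.

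Other signs turned with a library left out, with lowest and highest log2 fold changes of -0.15 and 0.16 for Creb3l3, -3.35 and 0.87 for Myh6, -0.18 and 0.35 for Kdr, -0.66 and 0.059 for Lhx1, -1.09 and 0.42 for Eomes, -1.19 and 0.29 for Tnnt2, -1.90 and 0.33 for Myl7, -0.27 and 1.35 for Gata2, -0.069 and 0.27 for Cdh5, -0.12 and 0.32 for Sox18, -0.10 and 0.45 for Dll4, -0.16 and 0.39 for Rxra, -1.17 and 0.068 for Zfpm1, -1.33 and 0.092 for Gata1, -0.25 and 1.38 for Afp, -0.24 and 1.14 for Apoa2, -0.65 and 0.31 for Pdx1 and -0.033 and 5.88 for Prl3d1. In limma voom the sign turned for Creb3l3 (0.17), Gata2 (-0.029), Myh6 (-2.27), Hbb-y (0.15), Prl2c2 (-1.26) and Prl3d1 (-1.40). Eomes stood at 0.00098 with library totals only, 0.0033 without a filter and 0.0039 in DESeq2. With the replicate block Myh6 stood at -1.69 and Kdr at -0.074.

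The labels do not say whether the replicate numbers pair the libraries. Deviations of same-numbered libraries from their group means correlated at -0.37, -0.28 and -0.19 across genes, which are not independent replicates. These deviations sum to 0 over the 3 libraries of a group, so the correlations cannot decide whether libraries were paired. With the replicate block 1 gene was called over all genes and 0 of the 7 factors, and log2 fold changes were 0.06 for Hnf4a, 0.09 for Foxa1, 0.16 for Foxa2, 0.60 for Foxa3, 0.02 for Gata6 and 0.29 for Sox17. With 3 libraries a group, exact permutation cannot go below 0.1.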
